A study of Mus musculus with 3 samples.

Results

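Pou5f1 (also called Oct4), Sox2, Nanog and Sall4 are the transcription factors at the centre of the mouse pluripotency network, and their transcript levels were followed across 3 pluripotent cultures measured on 1 array each. They were taken by symbol and make up 4 of 22180 genes with a probe set of a single symbol. Pou5f1, Sox2 and Nanog had 1 probe set each and Sall4 had 2, of which the brighter represents the gene and the other is shown beside it. The cultures were all of the mouse embryonic stem cell (mESC) line EB3 or of mouse epiblast stem cells (mEpiSCs) induced from it, and all grew in N2B27 medium. The Activin+PD culture was kept for 64 days with Activin A (20 ng/ml) and the MEK inhibitor PD0325901 (2 µM). The 2i culture was kept for 34 days with PD0325901 (2 µM) and the GSK3 inhibitor CHIR99021 (2 µM). The mEpiSC culture had Activin A (20 ng/ml) and bFGF (12 ng/ml), with the time in culture not given in the sources used here. EB3 is a single line known, from outside the labels, to carry a drug resistance gene placed at a Pou5f1 allele, which all 3 cultures would share. Since each culture has a single array, "higher" and "lower" are read from these arrays alone, and the spread between repeated cultures is unknown. The mESC cultures differ in Activin A, in CHIR99021 and in days of culture together, and the parts of these cannot be told apart.

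Pou5f1 is a POU-domain factor that, with the HMG-box factor Sox2, binds a composite DNA element made of a Sox motif beside an octamer-like motif. Nanog is a homeodomain factor that stabilises self-renewal and is known to vary from cell to cell in mESC cultures. Sall4 is a zinc finger factor of the Spalt family that binds Pou5f1 and Nanog and recruits the NuRD co-repressor complex. Naive mESCs, which resemble the early epiblast, and primed mEpiSCs, which resemble the epiblast after implantation, both use these factors but differ in the auxiliary factors around them.

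Each of the 4 factors differed by less than 2-fold between the mESC cultures, whether Activin A or CHIR99021 accompanied the MEK inhibitor. In mEpiSCs, Pou5f1 and Sall4 kept within 2-fold of both mESC cultures, whereas Sox2 and Nanog were lower. Staying within 2-fold was common among all genes compared. The share apart was 2.20% between the mESC arrays, 9.48% between mEpiSC and 2i and 8.96% between mEpiSC and Activin+PD. Sox2 stood at 44.6% and Nanog at 25.1% of the 2i intensity. In bulk RNA, fewer cells that express a factor and less of its transcript per cell cannot be told apart. Values are log2 intensities, and a gene was above background where it exceeded the 95th percentile of olfactory and vomeronasal receptor probe sets, a log2 level of 5.50 in Activin+PD, 5.59 in 2i and 5.57 in mEpiSC.

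The log2 level of Pou5f1 was 8.09 in Activin+PD, 8.24 in 2i and 8.39 in mEpiSC. The 3 arrays thus lay within 0.30 of each other, with mEpiSC the highest, and 44.1% of the 14539 genes above background on any array had a smaller range. A single probe set measures Pou5f1, and related sequences lie elsewhere in the mouse genome. The probe set of one of them, Pou5f1-rs4, stood at 5.88, 5.96 and 6.33 on the same arrays, and its part in the Pou5f1 signal was not tested.

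The log2 level of Sox2 was 11.24 in Activin+PD, 11.01 in 2i and 9.85 in mEpiSC. Both mESC arrays were high and close to each other, and the mEpiSC array was the low one. The range of 1.39 was larger than that of 93.1% of genes above background on any array.

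The log2 level of Nanog was 12.33 in Activin+PD, 12.07 in 2i and 10.08 in mEpiSC, which is an intensity of 5149, 4312 and 1082. Its range of 2.25 exceeded that of 97.8% of genes. Nanog remained far above background in mEpiSCs.

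The log2 level of Sall4 was 10.44 in Activin+PD, 10.28 in 2i and 10.19 in mEpiSC, the smallest range of the 4 factors at 0.24. Its second probe set was dim, at 6.48 in Activin+PD, 5.74 in mEpiSC and not above background in 2i. On that probe set Activin+PD was higher than 2i by at least 0.89, against 0.15 on the bright one. With the mean of both probe sets, the Activin+PD minus 2i difference of Sall4 was 0.62 and the mEpiSC minus 2i difference turned from -0.090 to 0.14, so the near-constant level of Sall4 rests on the bright probe set.

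**Figure D1:**
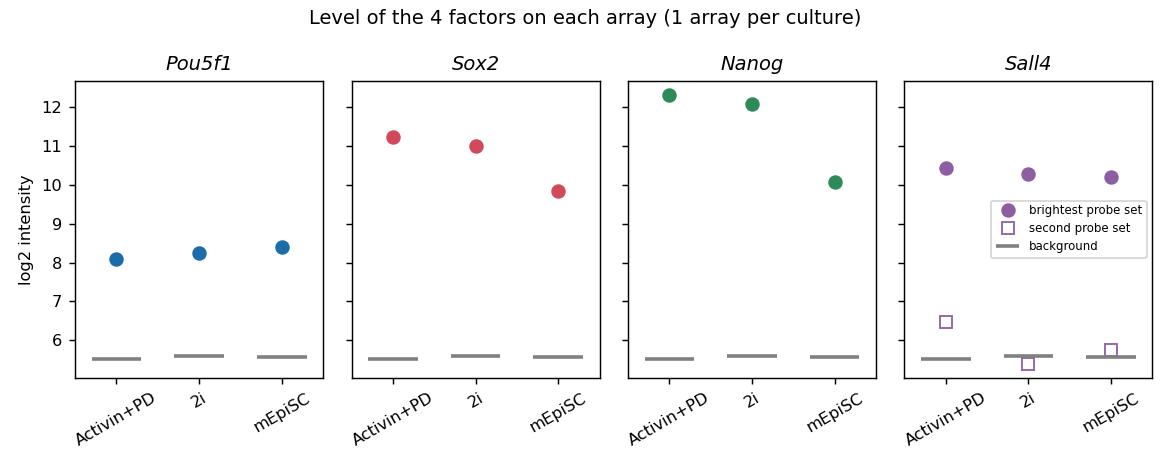
Log2 intensity (vertical axis) of each factor on the 3 arrays (horizontal axis). Filled circles are the brightest probe set, open squares the second probe set of Sall4, and grey bars the background of each array. Pou5f1 and the bright Sall4 probe set stay level, while Sox2 and Nanog drop to 9.85 and 10.08 in mEpiSC.

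The promoter windows of Nanog, Sox2 and Pou5f1 are shown because Sox2 and Pou5f1 are known to bind such elements in Nanog, the factor with the widest range. No window of Sall4 was among the sequences used here, so its motifs were not read. RefSeq windows on GRCm38.p6, each of 300 bases from 250 before to 50 after a start site, were matched for Nanog (chr6:122707239-122707538, plus strand), Sox2 (chr3:34649745-34650044, plus strand) and Pou5f1 (chr17:35505782-35506081, plus strand). Capitals mark the letters of the Sox motif CATTGT, of ATGCAAA (the octamer without its last base), or of the nuclear receptor core motif AGGTCA, searched on both strands.
Nanog: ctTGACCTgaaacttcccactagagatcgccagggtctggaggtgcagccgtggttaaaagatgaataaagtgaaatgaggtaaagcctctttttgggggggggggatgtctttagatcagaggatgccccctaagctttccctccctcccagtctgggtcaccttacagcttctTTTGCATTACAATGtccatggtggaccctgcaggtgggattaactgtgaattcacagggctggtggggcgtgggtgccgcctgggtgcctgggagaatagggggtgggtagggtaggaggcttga
Sox2: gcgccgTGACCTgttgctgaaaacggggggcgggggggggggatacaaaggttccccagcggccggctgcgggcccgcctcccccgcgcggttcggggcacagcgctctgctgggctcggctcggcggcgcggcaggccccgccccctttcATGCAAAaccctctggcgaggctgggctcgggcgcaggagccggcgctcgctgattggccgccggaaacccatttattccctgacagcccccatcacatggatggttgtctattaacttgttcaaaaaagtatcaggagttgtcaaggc
Pou5f1: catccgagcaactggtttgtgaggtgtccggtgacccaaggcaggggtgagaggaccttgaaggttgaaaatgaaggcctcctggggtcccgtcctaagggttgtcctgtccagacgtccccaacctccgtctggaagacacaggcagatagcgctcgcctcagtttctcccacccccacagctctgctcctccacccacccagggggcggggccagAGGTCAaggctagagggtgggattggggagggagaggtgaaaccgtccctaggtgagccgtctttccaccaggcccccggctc

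The Nanog window held the Sox-Oct composite, CATTGT followed by any base and ATGCAAA, on the minus strand at positions -75 to -62 from its start site. Of 32851 RefSeq windows of this length, 2 held the composite in these letters (0.00609%), and both were overlapping windows of Nanog around the same site. The Sox2 window held ATGCAAA at -99 to -93, as did 4.63% of all windows. It held no CATTGT, a motif of 12.6% of windows, and none of the windows shown held the whole octamer ATGCAAAT, found in 1.74%. The Pou5f1 window held AGGTCA at -33 to -28, as did 16.3% of windows, and the Nanog and Sox2 windows held it near their far end, at -248 to -243 and -244 to -239 on the minus strand. A match is a run of letters and not a measured binding site. The GC content was 66.3% in the Sox2 window with 27 CpG, 62.7% in that of Pou5f1 with 11, and 54.3% in that of Nanog with 4, beside medians of 52.7% and 7 over all windows. Pou5f1 and Nanog each have a second window from another start site. That of Pou5f1 had a GC content of 45.7% with 6 CpG, below both medians, and held the Sox motif on the minus strand at -158 to -153.

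Between the mESC arrays, Nanog was 0.26 higher in Activin+PD than in 2i, Sox2 0.23 and Sall4 0.15 higher, and Pou5f1 differed by -0.15. The error of a difference was taken from 498 genes with 2 probe sets above background on all arrays, as the standard deviation of their disagreement divided by the square root of 2, and came to 0.24 in this comparison. It covers probe sets and not cultures. The Nanog difference was 1.04 times that error and the other 3 were below it. Against the smaller error of 0.10 from the 91 genes with both probe sets at a mean log2 level of at least 8, where all 4 factors lie, the differences were 2.53 times the error for Nanog, 2.26 for Sox2, 1.53 for Sall4 and -1.45 for Pou5f1. None of the 4 was 2-fold apart, where 2.20% of the 14022 genes compared were (1.38% higher and 0.820% lower). In size, 70.9% of the genes compared differed less than Nanog and 49.2% less than Pou5f1.

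Between mEpiSC and 2i, Nanog differed by -1.99 (3.99-fold lower) and Sox2 by -1.17 (2.24-fold lower). Divided by the probe set error of 0.33, these came to -6.03 and -3.52, and divided by the bright-gene error of 0.17 to -12.1 and -7.06. Pou5f1 differed by 0.15 and Sall4 by -0.090, both below either error. Thus 2 of 4 factors were at least 2-fold lower and 0 higher, where 4.96% of 14223 genes compared were lower, 4.53% higher and 9.48% apart in either direction. Nanog was among the lowest 1.28% of genes compared and Sox2 among the lowest 3.96%.

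The mEpiSC and Activin+PD cultures both contained Activin A, and their media differed in bFGF and the MEK inhibitor. The mEpiSCs were also induced to another state, with a time in culture not given, and these differences cannot be told apart. Nanog differed by -2.25 (4.76-fold lower in mEpiSC), Sox2 by -1.39 (2.63-fold), Sall4 by -0.24 and Pou5f1 by 0.30. The probe set error here was 0.30, and Pou5f1 was at 0.99 times it. With the bright-gene error of 0.18, Pou5f1 was at 1.68 and Sall4 at -1.38 times the error, so whether these small differences pass the error depends on which genes set it. The same 2 factors were at least 2-fold lower, where 5.37% of 14383 genes were lower, 3.59% higher and 8.96% apart. This comparison shares its arrays with the previous ones and adds no independent support. Over all 3 arrays, 12.0% of the 14539 genes above background on any array had a range of at least 2-fold, and Sox2 and Nanog were among them.

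**Figure D2:**
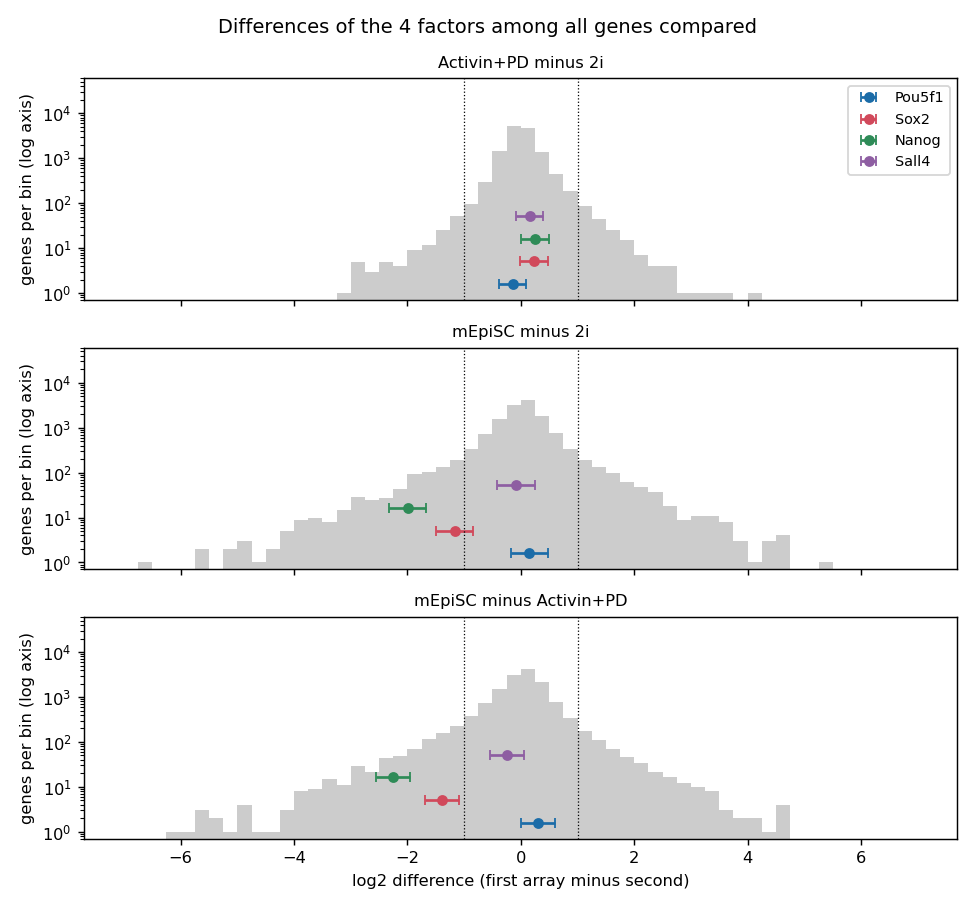
Log2 difference between arrays (horizontal axis) for the 4 factors, as points with bars of 1 probe set error, over a histogram of all genes compared (vertical axis, genes per bin, log scale). The height of a point has no meaning, and dotted lines mark 2-fold. All 4 points lie between the lines for Activin+PD minus 2i, while Nanog (-1.99) and Sox2 (-1.17) lie below them for mEpiSC minus 2i.

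The factors changed unequally in mEpiSCs. Relative to Pou5f1 on the same arrays, Nanog was lower by 2.15 and Sox2 by 1.32 on the log2 scale against 2i, beside an error of 0.47 for a difference between probe sets. Nanog was lower than Sox2 in the same terms by 0.83, which was 1.77 times that error and 3.55 times the one from bright genes. Pou5f1 and Sall4 differed from each other by 0.24, below the first error and 1.03 times the one from bright genes. In rank among the 22180 genes of an array, which depends on how well a probe set binds and is read here only for the same gene, Nanog had 31 genes above it in Activin+PD, 52 in 2i and 828 in mEpiSC. Sox2 had 183, 248 and 1092 genes above it on those arrays. Sall4, on its bright probe set, moved from 536 and 659 to 723, and Pou5f1 went the other way, from 4527 and 4132 to 3614.

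The state of the cultures was checked with 13 markers each. Of the naive markers, 11 were at least 2-fold lower in mEpiSC than in 2i and 0 higher, with Zfp42 at 11.45 in Activin+PD, 11.18 in 2i and 5.94 in mEpiSC. Of the primed markers, 10 were at least 2-fold higher in mEpiSC and 0 lower, with Fgf5 at 7.08, 5.60 and 10.88. These counts were 84.6% and 76.9% of the lists, beside 4.96% of all genes lower and 4.53% higher. Dnmt3a, also on the primed list, was lowest in mEpiSC, at 9.19, 8.48 and 7.99. Between the mESC arrays 0 of 13 naive markers were 2-fold apart, beside 2.20% of all genes. Of 12 primed markers, 2 (16.7%, beside 1.38% of all genes) were 2-fold higher in Activin+PD, Otx2 by at least 2.23 and Fgf5 by 1.48. Most markers thus went with the labels of the mESC and mEpiSC cultures. Markers of other cell types were read besides. Of all 22180 genes, 13774 were above background in Activin+PD, 13359 in 2i and 13673 in mEpiSC. Beside these shares, 8, 9 and 9 of 13 fibroblast markers were above background in the same order, with summed intensities of 1506, 1486 and 1232. Fbln1 (9.61, 9.57 and 8.40) carried much of these sums, which without it were 726, 727 and 895 and thus highest in mEpiSC. Of 9 fibroblast markers compared between mEpiSC and 2i, 0 were at least 2-fold higher and 1 lower, with a median of 0.064. Acta2 (6.73, 6.65 and 7.60) and Col1a1 (6.47, 6.37 and 6.90) were higher in mEpiSC, but by 0.954 and 0.535 over 2i, within 2-fold. Col6a1 (6.31, 6.42 and 6.36) and Pdgfrb (6.55, 6.58 and 6.56) were level. Postn, Lum, Dcn and S100a4 were not above background on any array. Neural markers summed to 1180, 760 and 1114 with 7 of 7 above background. Tubb3 was at 9.32, 8.003 and 6.83 and Nes at 7.25, 7.29 and 9.21, so different genes carried the sums of the Activin+PD and mEpiSC arrays. The sums without Tubb3 were 539, 503 and 1000.3 and those without Nes 1028, 603 and 520.3. The extraembryonic endoderm markers summed to 532, 507 and 673 with 6, 5 and 7 of 9. The part of such cells in the levels of the 4 factors was not tested.

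Relatives of the factors were read because paralogues can share DNA motifs. Of 10 POU genes on the array besides Pou5f1, 8 were compared between mEpiSC and 2i, and 1 was at least 2-fold higher and 0 lower, a share of 12.5% apart near the 9.48% of all genes. Pou3f1 (Oct6), a POU factor of the primed epiblast, was at 6.08 in Activin+PD, 5.84 in 2i and 8.65 in mEpiSC, a difference of 2.81 from 2i. It was high on the mEpiSC array alone, and Pou5f2, the closest relative by name, was not above background anywhere. Among the others, Pou4f1 was at 6.88, 6.81 and 6.003 and Pou2f3 at 5.79, 6.61 and 6.29, all within 2-fold. With 16 subtracted from every intensity, Pou2f3 passed 2-fold in Activin+PD minus 2i (-1.06) and Pou4f1 in mEpiSC minus Activin+PD (-1.09). The list median was 0.13, beside 0.030 for all genes compared. Between the mESC arrays 0 of 7 POU genes were 2-fold apart, beside 2.20% of all genes compared.

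Of 19 Sox genes besides Sox2, 15 were compared between mEpiSC and 2i, with 2 at least 2-fold higher, 1 lower and a median of 0.17, or 20.0% apart beside 9.48% of all genes. Sox4 was at 8.02 in Activin+PD, 6.65 in 2i and 8.87 in mEpiSC, so it was lowest in 2i, and Sox11, a relative in the same subgroup, was at 5.72 in 2i and 7.05 in mEpiSC and not above background in Activin+PD. Sox4 was also the single Sox gene of 15 past 2-fold between the mESC arrays (6.67%, beside 2.20% of all genes). It was 1.37 higher in Activin+PD, and within 2-fold with the mean of its probe sets. Sox15 was at 7.73, 7.44 and 6.35, a difference of -1.09 between mEpiSC and 2i close to that of Sox2. Sox21 was at 7.67, 7.61 and 6.67, or -0.94 (-1.07 with 16 subtracted from every intensity). Of the closest relatives of Sox2, Sox3 was at 6.94, 6.62 and 7.48, within 2-fold but 0.86 higher in mEpiSC, and Sox1, an early neural factor, stayed at 6.30, 6.12 and 6.09.

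Of the 3 Spalt relatives of Sall4, 1 was at least 2-fold apart between mEpiSC and 2i (33.3%, beside 9.48% of all genes). Sall3 was at 8.50 in Activin+PD, 8.33 in 2i and 6.08 in mEpiSC, a difference of -2.25 from 2i. Sall1 was at 9.59, 8.78 and 8.49, so it was highest in Activin+PD, by 0.81 over 2i, with mEpiSC at -1.10 from it. Sall2 was at 6.58, 6.61 and 7.31, within 2-fold on all arrays. Sall4 itself, at -0.090 between mEpiSC and 2i, lay between Sall2 (0.70) and Sall1 (-0.29).

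**Figure D3:**
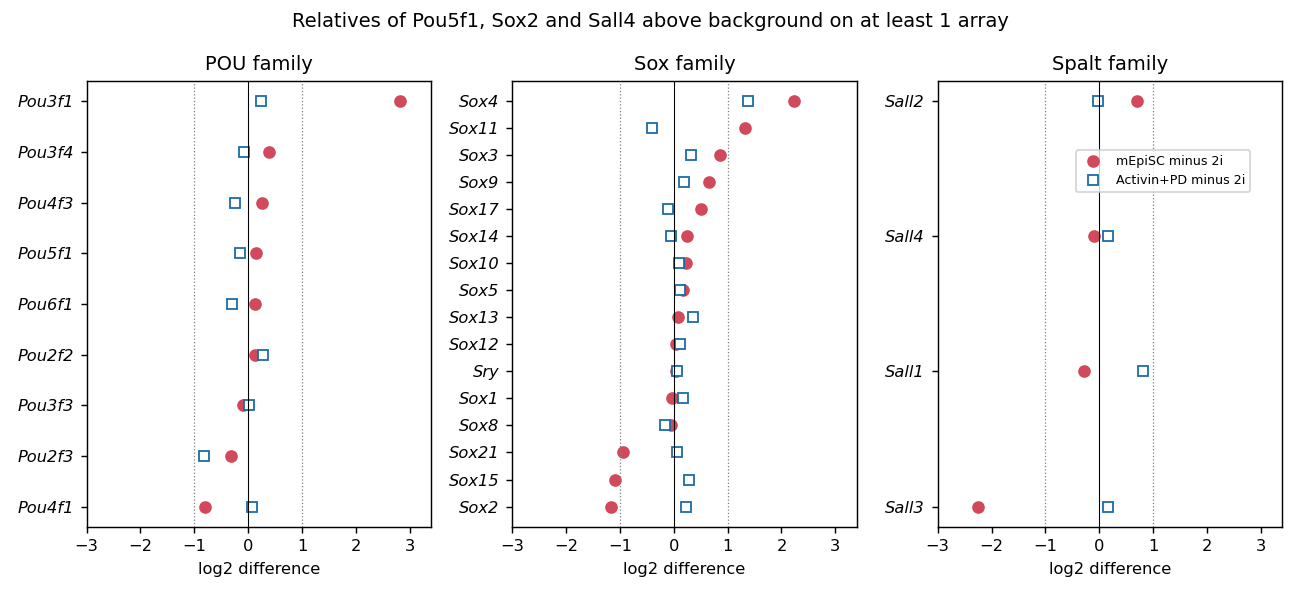
Log2 difference (horizontal axis) of each POU, Sox and Spalt gene above background on at least 1 array (vertical axis). Red circles are mEpiSC minus 2i, open blue squares Activin+PD minus 2i, and dotted lines 2-fold, with measured differences drawn also for genes not above background on 1 of the arrays. Pou3f1 (2.81) and Sox4 (2.22) stand at the top of their families and Sox2 (-1.17) and Sall3 (-2.25) at the bottom.

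Of 29 known physical partners of the factors, 0 were 2-fold apart between the mESC arrays, beside 2.20% of all genes, and between mEpiSC and 2i 2 were at least 2-fold lower and 0 higher, with a median of 0.028 that turned slightly negative (-0.0077) after removal of the intensity trend. These 6.90% apart were near the 9.48% of all genes compared. The NuRD subunits Chd4 (10.02, 10.14 and 10.19 in Activin+PD, 2i and mEpiSC), Mbd3 (8.30, 8.31 and 8.29) and Hdac1 (11.08, 11.33 and 11.33) were level. The 2 lower partners were Nr0b1, an orphan receptor that binds Pou5f1, at 10.37 and 10.06 in the mESC cultures and not above background in mEpiSC, and Tet2, a methylcytosine oxidase, at 9.86, 9.71 and 6.10. The mEpiSC minus 2i difference was -3.62 for Tet2 and, against the mEpiSC background, -4.49 or further from 0 for Nr0b1.

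Of 20 genes known to act on the 4 factors compared between mEpiSC and 2i, 6 were at least 2-fold lower and 1 higher, with a median of -0.32. The lower share was 30%, beside 4.96% of all genes compared, and all 6 of these genes also stand on the list of naive markers. Tbx3 was at 10.36, 10.26 and 6.20 in Activin+PD, in 2i and in mEpiSC, Klf2 at 10.10, 10.06 and 6.81, and Nr5a2 at 10.04, 10.21 and 6.33. Nr5a2 is a nuclear receptor known in the mouse to bind the Pou5f1 promoter, and it differed by -3.88 between mEpiSC and 2i where Pou5f1 differed by 0.15. Nr6a1, a receptor that represses Pou5f1 on differentiation, stayed at 7.45, 7.54 and 7.48. Tcf7l1, a repressor of Nanog relieved by beta-catenin, was at 10.49, 10.21 and 9.89, and Smad2 and Smad3, which carry the Activin signal, were within 2-fold on all arrays. Otx2, an epiblast factor, was the single regulator of 19 past 2-fold between the mESC arrays (5.26%, beside 2.20% of all genes). Otx2 was not above background in 2i and stood at 7.82 in Activin+PD and 8.37 in mEpiSC. Prdm14, 0.97 higher in Activin+PD than in 2i, also passed 2-fold with 16 subtracted from every intensity (1.02).

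Genes known to be bound by the factors differed in both directions in mEpiSCs. Of 21 compared with 2i, 9 were at least 2-fold lower and 3 higher, with a median of -0.40. The lower share was 42.9% and the higher 14.3%, beside 4.96% and 4.53% of all genes, and 6 of the 9 are also naive markers. Lefty1 (1.02) was within 2-fold after median centring, which leaves 2 higher. Zfp42 differed by -5.24, Tbx3 by -4.06, and Fbxo15, a classical target of Pou5f1 and Sox2, was lower in mEpiSC by a difference of -4.56 or further from 0. Further classical Sox2 and Pou5f1 targets went opposite ways, Fgf4 at 10.82, 10.26 and 8.73 and Utf1 at 10.52, 9.57 and 10.97 in the same order. Tdgf1, a Nodal co-receptor, was at 10.15, 8.85 and 11.29, higher in both Activin A cultures. Between the mESC arrays 2 of 21 targets (9.52%) were past 2-fold, both higher in Activin+PD, beside 1.38% of all genes higher. They were Lefty1 (2.64), an antagonist and target of Nodal, and Tdgf1 (1.30).

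Genes of other lineages that the factors are known to keep low were also compared. Of 18 between mEpiSC and 2i, 5 were at least 2-fold higher and 2 lower, with a median of 0.18. The higher share was 27.8% and the lower 11.1%, beside 4.53% and 4.96% of all genes. Of the higher genes, Eomes and Foxa2 (1.76) also stand on the list of primed markers, and Gata6 on that of extraembryonic endoderm. Eomes, a mesendoderm and trophoblast factor, was at 6.85, 7.05 and 9.43, the keratin gene Krt18 at 6.97, 6.73 and 9.13, and Gata6, an endoderm factor that Nanog represses, was above background in mEpiSC alone, at 7.09. Cdx2, the trophoblast factor that opposes Pou5f1, was at 5.84 in Activin+PD, 8.64 in 2i and 5.91 in mEpiSC, high in 2i alone while Pou5f1 was level. Of 17 compared between the mESC arrays, Cdx2 was lower (-2.80) and Gata3 higher (1.56) in Activin+PD. Together they were 11.8% of these genes, beside 2.20% of all genes apart. Gata3 was within 2-fold with the mean of its probe sets.

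**Figure D4:**
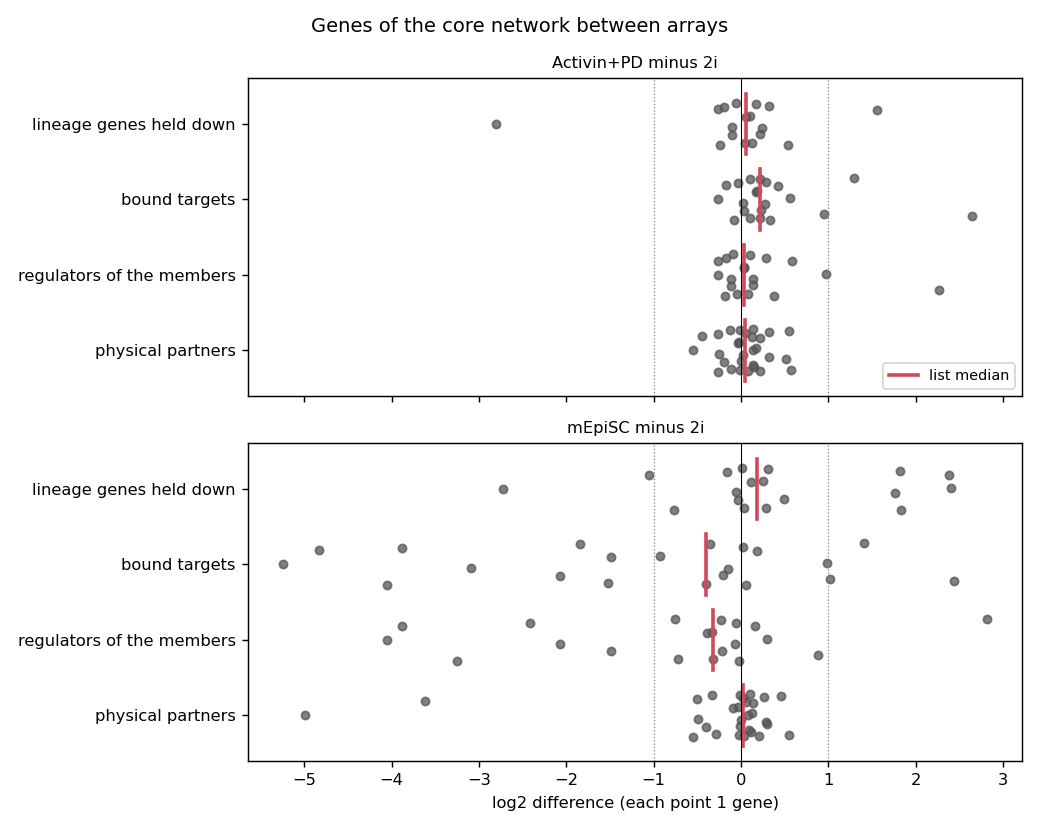
Log2 difference (horizontal axis) of each compared gene of 4 lists (vertical axis, points spread vertically for visibility), for Activin+PD minus 2i above and mEpiSC minus 2i below. Red bars are list medians and dotted lines 2-fold. Genes not above background on 1 of the arrays are drawn at their measured difference, not at the bound. In mEpiSC, 27 of 29 partners lie within 2-fold of 2i, while targets reach from -5.24 to 2.44.

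Against Activin+PD, with which it shares the Activin A, mEpiSC gave like counts, and both comparisons use the same mEpiSC array. Of 20 regulators, 7 were at least 2-fold lower and 0 higher (median -0.50), and of 21 bound targets 10 were lower and 1 higher (median -0.89), beside a median of 0.042 over all genes compared, of which 5.37% were lower and 3.59% higher. All 7 of these regulators and 6 of the 10 targets are also naive markers. Of 29 partners, 2 (6.90%) were lower and 0 higher. Of the relatives, 1 of 8 POU genes (12.5%) was higher and 0 lower, 1 of 15 Sox genes was higher and 2 lower, and 2 of 3 Spalt genes, Sall1 and Sall3 (-2.42), were lower. The lower Sox genes were Sox15 and Sox21 (-1.001), of which Sox21 was within 2-fold after quantile normalisation (-0.96) and with the mean of probe sets (-0.40). Of 18 genes of other lineages, 5 were higher, among them the primed markers Eomes and Foxa2, and 2 lower. The lower genes included Gata3 (-1.25), which was within 2-fold with the mean of its probe sets (-0.73).

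The genomic neighbours of the factors were read from RefSeq gene order. On chromosome 6, Gdf3, the second protein-coding gene before Nanog, was at 9.49, 9.67 and 5.78 in Activin+PD, in 2i and in mEpiSC. Slc2a3, a glucose transporter gene next after Nanog, was at 11.71, 11.66 and 10.61, and Dppa3 (Stella), next before it, at 6.68, 6.71 and 5.79. With Nanog these were lower in mEpiSC than in 2i, at -3.89 for Gdf3, -1.05 for Slc2a3 and -0.92 for Dppa3. With 16 subtracted from every intensity, Dppa3 passed 2-fold (-1.18). Foxj2, the second gene after Nanog, differed by -0.37, and Apobec1 and Necap1 farther out by -0.30 and -0.63. On chromosome 17, Tcf19 and Cchcr1 beside Pou5f1 were level with it, while Psors1c2, the third gene after Pou5f1, was at 6.12, 6.30 and 10.17, higher in mEpiSC by 3.87. Of 16 neighbours compared between mEpiSC and 2i, 1 was at least 2-fold higher and 2 lower, with a median of -0.18, or 18.8% apart beside 9.48% of all genes compared. Between the mESC arrays 0 of 15 were 2-fold apart, beside 2.20%. Around Sox2 and Sall4 none was 2-fold apart, with Fxr1 at -0.27 and Atp11b at 0.027 beside Sox2 and Atp9a at -0.74 and Zfp64 at -0.10 beside Sall4 in mEpiSC minus 2i.

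**Figure D5:**
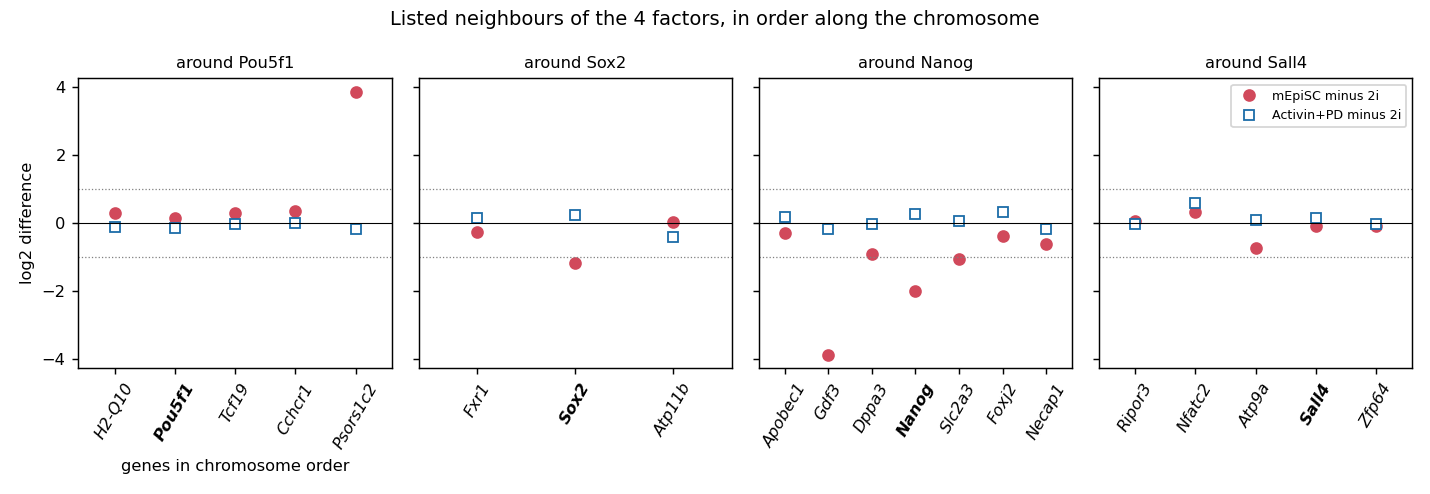
Log2 difference (vertical axis) of listed neighbours on the array, in chromosome order with other genes left out (horizontal axis, not to scale), around each factor (bold). Red circles are mEpiSC minus 2i, open blue squares Activin+PD minus 2i, and dotted lines 2-fold. Gdf3, Dppa3, Nanog and Slc2a3 lie low together, and Psors1c2 (3.87) stands apart near Pou5f1.

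The genes most like each factor were found among 12644 genes above background on all arrays, by the Euclidean distance between their 3 log2 values after centring on their mean. With 3 values, a likeness is a description only. Within a distance of 0.25 there were 26 genes (0.206%) for Nanog and 127 for Sox2, against 5234 (41.4%) for Pou5f1 and 4342 (34.3%) for Sall4, whose flat profiles are common. Nearest to Nanog were Camk1d, Rnf213, Mybl2, Chchd10 and Rbmxl2, at distances of 0.055 to 0.11. Mybl2, a cell cycle transcription factor, was at 11.21, 11.04 and 9.06 in Activin+PD, 2i and mEpiSC. Nearest to Sox2 were Abcb1a, Csrnp2, Dhx32, Aldh6a1 and Gm2022, of which Abcb1a, a drug efflux transporter gene, was at 7.30, 7.08 and 5.93. For Pou5f1 they were Gm7226, Arid5a, Spag4, Supt20 and Stt3b, and for Sall4 Gtf2ird1, Sugp2, Reps2, Zfp788 and Capzb, all within 0.011.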

How the data were processed

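Total RNA of 3 cultures was labelled with the GeneChip WT PLUS kit and hybridised to Mouse Gene 2.0 ST arrays, per the labels' protocols and the series' design text. The deposited values were intensities on a linear scale, from 18.9 to 11623, made by the authors with RMA, per the submitters' processing notes, and GeneSpring GX 11.5, per the design text. Log2 of each deposited intensity was taken here. RMA equalises the arrays, so cultures that differ in RNA per cell would not show it.

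Of 33793 probe sets, 23521 had 1 symbol, 1814 several and 8458 were not listed in the platform annotation. Of those with 1 symbol, 23328 had an Entrez identifier found in RefSeq and took the RefSeq symbol, whether or not it differed. A gene was represented by its brightest probe set and compared where its higher array was above background (1405 receptor probe sets); where the dimmer array was not, only a bound is given ("at least"). Of each list, genes at least 2-fold apart were named, at most the 3 largest in each direction. POU, Sox and Spalt genes and the 5 nearest profiles were named besides. Others, named to show level genes or genes shared between lists, were chosen after their values were seen. So were the error from bright genes, the marker sums without 1 gene and the motifs AGGTCA and ATGCAAA on its own.

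The array number limits the precision and no p-value was computed. The difference code was tested on simulated data. The members and the 13 lists were chosen with earlier results of these data known. Python 3.11.15, numpy 2.4.6, pandas 2.3.3 and statsmodels 0.14.6 were used. Promoters came from RefSeq, and a protein comparison planned for relatives was not run. Listed genes without a probe set of a single symbol were not analysed here.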

Additional observations from a re-analysis of the deposited data

How the results depend on the processing

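The counts, the list medians, the median over all genes and the differences of the 4 factors were recomputed under further settings. These were 16 subtracted from every intensity, median centring, quantile normalisation and the mean of probe sets. Others were values raised to background, the 90th percentile as background, removal of the intensity trend and, for counts, a 1.5-fold threshold. The number of factors 2-fold apart was the same under all of these in each comparison. Of 84 recomputed differences of the 4 factors, 83 moved by less than the probe set error (81 by less than that of bright genes). Many of the 84 were fixed in advance, so this count does not measure stability. Raising values to background or lowering the background cannot change factors above it. The mean of probe sets cannot change a factor with a single probe set. The exception was Sall4 between Activin+PD and 2i with the mean of probe sets (0.62), which includes its dim probe set. Nanog between mEpiSC and 2i ranged from -2.06 to -1.98 and Sox2 from -1.22 to -1.17. Ranks were recomputed with the mean of probe sets alone. Sall4 then fell from percentiles of 97.6, 97.0 and 96.7 in Activin+PD, 2i and mEpiSC to 84.8, 77.6 and 79.7. Ranges, gaps between factors, nearest profiles and marker sums were not recomputed. With 16 subtracted, 295 genes passed 2-fold upward in Activin+PD against 2i. With the 1.5-fold threshold, which is looser by construction, 996 genes were apart in that comparison (637 higher and 359 lower), 2806 between mEpiSC and 2i (1351 and 1455), and 2830 between mEpiSC and Activin+PD (1256 and 1574). Of 464 recomputed list counts, 30 moved by over 1.5 times or between 0 and a count, and the 168 list medians moved by less than the probe set error. That error is of a single gene, so it is a loose bound for a median and does not measure stability. The POU median of mEpiSC minus Activin+PD went from 0.45 to 0.28 with values raised to background. A replicate could not be left out, since each culture had 1 array. No paired analysis was possible because each group holds 1 sample.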
